A study of Mus musculus with 8 samples.

Results

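Genes of ubiquitin conjugation, and of the histone ubiquitylation that precedes the exchange of histones for protamines in spermatids, were followed across the 4 genotypes of a mouse testis series. The members were named as 7 genes, Tmem129, Ube2f, Rnf20, Ube2a, Ube2b, Ubb and Uba1, and every probe set annotated to exactly 1 of these symbols was taken. Of the 7 genes, 5 had such a probe set, and together they had 8 of the 12488 probe sets on the array. Ubb and Uba1 were listed with none in the annotation used here and were not analysed here. Tmem129, Ube2f and Rnf20 were chosen by the size of their signal differences in the single knockouts of these same data, so their values are given as descriptions with no test.

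Ubiquitin is attached to proteins in a relay. An E1 enzyme activates it, an E2 enzyme carries it, and an E3 ligase chooses the protein to be marked, which may be a histone or a protein bound for degradation. Related small proteins, among them NEDD8, have their own E1 and E2 enzymes. In elongating spermatids histones are ubiquitylated while chromatin is opened, and are then replaced by transition proteins and protamines.

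Double knockout mice were Ku86(-/-) and G3-Terc(-/-), Ku86 knockout mice were Ku86(-/-) with Terc(+/+), Terc knockout mice were Ku86(+/+) with G3-Terc(-/-), and wild type mice were Ku86(+/+) with Terc(+/+). Ku86, the protein of the Xrcc5 gene, binds broken DNA ends and telomeres, and Terc is the RNA template of telomerase. G3 is taken as generation 3 without Terc. Each genotype had 2 Affymetrix MG_U74Av2 arrays, replicates 1 and 2. The hybridised material was made from total RNA labelled as testis, although records made at the scanner speak of germ cells. By those records double knockout replicate 1 was pooled from 3 mice, and wild type replicate 1 was hybridised again after a first try with high background. Scan day 1 held replicate 1 of the double and Ku86 knockouts, day 3 held wild type replicate 1, and day 2 held the remaining arrays, and the chip lot changed with the day. Strain and age are not given in the sources used here. For the other arrays nothing says whether replicates were separate animals, so p-values measure only the spread between these arrays, which may be technical.

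Signals are in arbitrary units, and every array had been scaled to the same trimmed mean of about 200.1. The median signal of an array nevertheless varied, being highest on Terc knockout replicate 2 (73.2) and lowest on wild type replicate 1 (49.7), and arrays correlated at 0.910 to 0.959 over the tested probe sets. The labels were checked on Xrcc5, whose brighter probe set read 259 and 423.3 on double knockout arrays, 419.9 and 458.8 on Ku86 knockout arrays, 71.2 and 11.1 on Terc knockout arrays, and 46.3 and 75.6 on wild type arrays. It was thus higher on the arrays labelled as lacking Ku86. The stretch of transcript that its probes cover is unknown, and probes outside the deleted stretch would check nothing. Every genotype below, and every direction drawn from it, is therefore that of the arrays labelled with it. Spermatid markers were bright on all arrays, the 11 measured elongating spermatid genes summing to 91652 to 99892 on double knockout, 99214 to 100610 on Ku86 knockout, 100542 to 108368 on Terc knockout and 94842 to 106274 on wild type arrays. The 17 measured Sertoli cell genes summed to 6049 to 7105 on double knockout, 3645 to 5377 on Ku86 knockout, 4496 to 4885 on Terc knockout and 3329 to 3415 on wild type arrays. Sertoli cells are somatic, and signal of their genes was present on all 8 arrays. At or below the floor on every array were Ret among 10 spermatogonial genes and Sycp3 among 8 spermatocyte genes, both defining markers. In bulk samples fewer cells of a type and less RNA per cell cannot be told apart.

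Ube2a and Ube2b encode the mammalian homologues of yeast Rad6, the E2 enzymes that ubiquitylate histones, and male mice without Ube2b are infertile. The probe set of Ube2b read 479.2 and 466.7 on double knockout arrays, 563.3 and 476 on Ku86 knockout arrays, 477.8 and 383.5 on Terc knockout arrays, and 317 and 492.8 on wild type arrays. The range of each knockout overlapped that of wild type, whose replicate 1 was the lowest array of all. Ube2b was not picked for its values and is the 1 member with a test. Signals under 11.8 were raised to that floor, log2 was taken, and limma was fitted to the 7282 probe sets bright enough to test, with Benjamini-Hochberg adjustment over all of them.

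The log2 difference of Ube2b from wild type was 0.26 in the double knockout (95% interval -0.30 to 0.81, limma adjusted p = 0.849). It was 0.39 in the Ku86 knockout (interval -0.16 to 0.94, limma adjusted p = 0.802) and 0.12 in the Terc knockout (interval -0.44 to 0.67, limma adjusted p = 0.910). No call was made, and the intervals leave room for differences of up to 0.94 on the log2 scale. At an adjusted p under 0.05 limma called 0.0275% of all tested probe sets in the double knockout, 0.0412% in the Ku86 knockout and 0.0275% in the Terc knockout. Against the single knockouts, the double knockout differed by -0.13 from the Ku86 knockout (limma adjusted p = 1.00) and by 0.14 from the Terc knockout (limma adjusted p = 0.990). The interaction, the Ku86 effect without Terc minus the Ku86 effect with it, was -0.25 (interval -1.03 to 0.54, limma adjusted p = 0.924). With 4 arrays on each side, arrays lacking Ku86 differed from arrays with it by 0.27 (interval -0.13 to 0.66, limma adjusted p = 0.910), and arrays lacking Terc differed from arrays with it by -0.0079 (limma adjusted p = 0.997). Wild type replicate 1 was scanned alone on a separate day, and scan day 2 holds 5 arrays with every genotype. Among these the 3 differences from wild type were -0.079, -0.050 and -0.20, in the same order of genotypes. On that day the double knockout, the Ku86 knockout and wild type each had only their replicate 2, here and in all values within scan day 2 below.

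Ube2a gave too little signal to compare. Its probe set read 23 and 6.6 on double knockout arrays, 2 and 15.8 on Ku86 knockout arrays, 7.5 and 6.8 on Terc knockout arrays, and 3.9 and 21.8 on wild type arrays. On 5 of the 8 arrays it lay at or below the floor of 11.8, and it did not pass the filter, a mean signal of 38.1 on the log scale. The balance of both Rad6 homologues could therefore not be followed on these arrays, since levels of different probe sets cannot be set against each other.

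Ube2f encodes an E2 enzyme that carries NEDD8 in place of ubiquitin and, with the RING protein Rnf7, attaches it to the cullin Cul5. Its probe set read 76.7 and 19.2 on double knockout arrays, 55.2 and 130.3 on Ku86 knockout arrays, 74.5 and 141.3 on Terc knockout arrays, and 16.5 and 20.8 on wild type arrays. All 4 single knockout arrays stood above both wild type arrays, while double knockout replicate 2 stood between the wild type arrays. Means were 47.9 ± 40.7 in the double knockout, 92.8 ± 53.1 in the Ku86 knockout, 108 ± 47.2 in the Terc knockout and 18.6 ± 3.04 in wild type (SD, n = 2 each). The log2 differences from wild type were 1.05, 2.19 and 2.47 in the double, Ku86 and Terc knockouts, each with a standard error of 0.68. Wild type signals lay near the floor, and with the floor raised to the pooled 40th percentile the single knockout differences became 1.15 and 1.43. The double knockout value rested on 1 array, being 2.05 without replicate 2 and 0.052 without replicate 1, and it was -0.12 within scan day 2, where the Ku86 and Terc knockouts differed from wild type by 2.65 and 2.30.

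Rnf20 encodes a RING ligase that, with Rnf40, works with the Rad6 enzymes to attach ubiquitin to a histone of the nucleosome core. It had 3 probe sets, which did not follow each other. Probe set 102131_f_at read 112.9 and 248.6 on double knockout arrays, 80.8 and 45 on Ku86 knockout arrays, 201.7 and 337.4 on Terc knockout arrays, and 315.9 and 235.3 on wild type arrays. Both Ku86 knockout arrays stood below every other array, and the other genotypes overlapped wild type. Its log2 difference from wild type was -0.70 in the double knockout, -2.18 in the Ku86 knockout and -0.064 in the Terc knockout (standard error 0.42). Without double knockout replicate 2 the double knockout value was -1.27, without replicate 1 it was -0.13, and within scan day 2 it was 0.079. The Ku86 knockout value was -2.39 within scan day 2 and between -2.60 and -1.75 with any 1 array left out. By Affymetrix convention the suffix _f_at marks a probe set that shares sequence with a gene family, so its signal may include transcripts of other genes.

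Rnf20 probe set 104749_at ran the other way in the Ku86 knockout. It read 88 and 82.5 on double knockout arrays, 97.4 and 110.2 on Ku86 knockout arrays, 88.4 and 99 on Terc knockout arrays, and 65.6 and 77.9 on wild type arrays. Every knockout array stood above both wild type arrays, by log2 differences of 0.25, 0.54 and 0.39 for the double, Ku86 and Terc knockouts (standard error 0.33). With each array centred on its median these were -0.013, 0.30 and 0.057, so the direction in the double knockout turned with the scaling. The third probe set, 161952_r_at, did not pass the filter and read 0.6 or less on all arrays but Terc knockout replicate 1, at 13.2. Whether Rnf20 transcripts differed between genotypes thus cannot be read from these probe sets, of which the 2 over the filter gave opposite signs in the Ku86 knockout.

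Tmem129 encodes a RING ligase of the endoplasmic reticulum membrane, known from human cells for marking proteins that are drawn out of that membrane for degradation. Probe set 161542_r_at read 133.1 and 113.8 on double knockout arrays, 662.7 and 426.4 on Ku86 knockout arrays, 165.1 and 624.6 on Terc knockout arrays, and 36.1 and 56.2 on wild type arrays. All 6 knockout arrays stood above both wild type arrays, and both double knockout arrays stood below all 4 single knockout arrays. Means were 123 ± 13.6 in the double knockout, 545 ± 167 in the Ku86 knockout, 395 ± 325 in the Terc knockout and 46.1 ± 14.2 in wild type (SD, n = 2 each). These were 2.67, 11.8 and 8.56 times wild type, and the log2 differences were 1.45, 3.56 and 2.83 (standard error 0.50). Against the single knockouts, the double knockout differed by -2.11 from the Ku86 knockout and by -1.38 from the Terc knockout, the second being -0.42 without Terc knockout replicate 2 and -2.34 without its replicate 1. The Terc knockout difference from wild type was 1.87 without its replicate 2 and 3.79 without its replicate 1. Within scan day 2, with only replicate 2 of the double knockout, Ku86 knockout and wild type, the 3 differences from wild type were 1.02, 2.92 and 2.51.

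The other Tmem129 probe set, 97392_at, showed no such pattern. It read 329.4 and 331.3 on double knockout arrays, 353.9 and 337.6 on Ku86 knockout arrays, 330.1 and 372.3 on Terc knockout arrays, and 496.8 and 357.3 on wild type arrays. The log2 differences from wild type were -0.35, -0.29 and -0.27 (standard error 0.23), and -0.11, -0.082 and -0.027 within scan day 2, without wild type replicate 1, its highest array. With each array centred on its median they were -0.62, -0.52 and -0.60. Double and Ku86 knockout arrays lay below both wild type arrays and Terc knockout arrays overlapped them. The suffix _r_at of the first probe set marks, by Affymetrix convention, one designed under loosened rules for choosing probes. Positions of the probes are not known here, so whether both probe sets read the same transcripts was not tested.

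**Figure D1:**
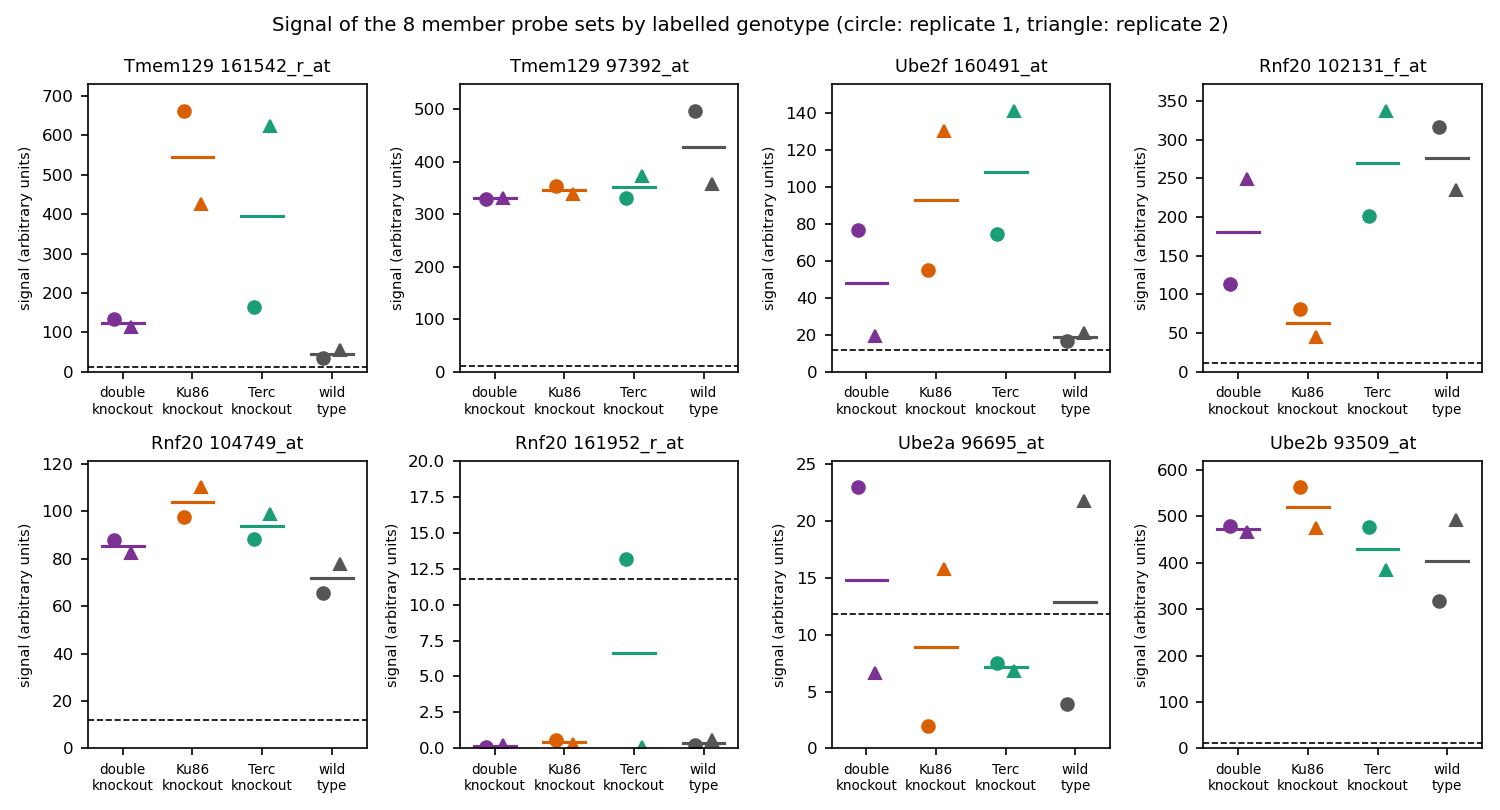
Signal in arbitrary units (linear axis from 0) of the 8 probe sets of the measured members, for the double knockout, Ku86 knockout, Terc knockout and wild type, with circles for replicate 1, triangles for replicate 2, bars for the mean of 2 arrays and a dashed line at the floor of 11.8. Tmem129 161542_r_at is above both wild type arrays on all 6 knockout arrays, whereas Tmem129 97392_at is highest on wild type replicate 1, at 496.8.

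**Figure D2:**
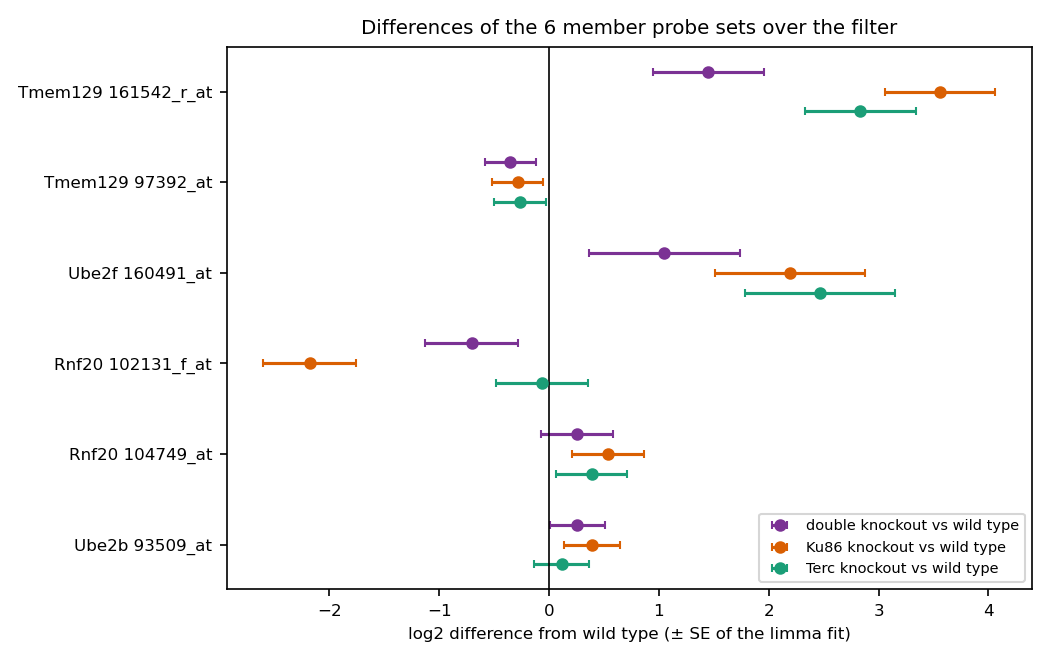
Log2 difference from wild type (horizontal axis) of the 6 member probe sets that passed the filter, for the double, Ku86 and Terc knockouts, with points for the limma estimate and bars for its standard error. The points for Tmem129 161542_r_at lie at 1.45, 3.56 and 2.83 and those for Ube2b between 0.12 and 0.39.

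Counts without overlap were read against all tested probe sets. Of the 6 member probe sets over the filter, 2 lay above wild type without overlap in the double knockout and 1 below, where 23.2% and 13.2% of all tested probe sets did so. In the Ku86 knockout 3 lay above and 2 below, against 24.4% and 13.7% of all, and in the Terc knockout 3 lay above and 0 below, against 25.5% and 12.2%. In the double knockout against the Ku86 knockout 1 lay above and 3 below, against 15.5% and 16.6%, and against the Terc knockout 0 lay above and 2 below, against 15.4% and 17%. With 4 arrays on each side 0 lay above or below for Ku86 loss, against 1.68% and 1.46% of all, and 0 for Terc loss, against 1.55% and 0.714%. Opposite effects without overlap, of Ku86 loss with and without Terc and likewise of Terc loss, were seen for 2 of the 6, Tmem129 161542_r_at and Rnf20 104749_at, against 5.93% and 6.19% of all. Of these 6 probe sets 5 belong to the chosen genes, so nothing is read from these counts. The comparisons with wild type share the same 2 wild type arrays.

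Tmem129 161542_r_at and Ube2f were high on partly the same arrays, with a Pearson r of 0.81 and a Spearman rho of 0.71 over the 8 arrays, and r of 0.88 without the 2 arrays farthest from the median of Tmem129. Rnf20 104749_at followed Tmem129 161542_r_at with an r of 0.92 and rho of 0.90 (0.98 without those 2), and Ube2f with an r of 0.87. The points share arrays, genotypes and scaling, the genes were chosen for large differences in the single knockouts, and no p is given. With the median log2 signal of the array, r was 0.65 for Tmem129 161542_r_at, 0.56 for Ube2f, 0.72 for Rnf20 104749_at, 0.34 for Ube2b, -0.10 for Rnf20 102131_f_at and -0.70 for Tmem129 97392_at, so members differed in sign. The part of the array median in the result was not tested. Between probe sets of 1 gene, r was -0.45 for Tmem129 and -0.67 for Rnf20.

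**Figure D3:**
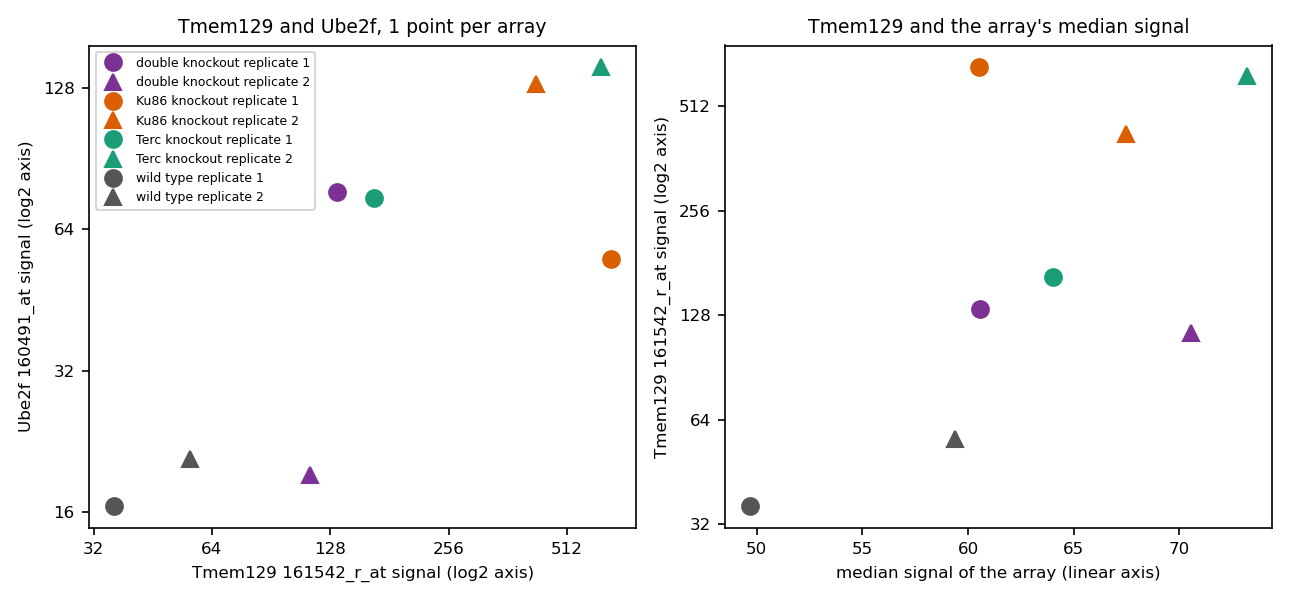
Left, Ube2f signal against Tmem129 161542_r_at signal, both on log2 axes in arbitrary units, and right, Tmem129 161542_r_at signal (log2 axis) against the median signal of the array (linear axis), with 1 point for each of the 8 arrays, colours for genotype, circles for replicate 1 and triangles for replicate 2. Ku86 knockout replicate 2 and Terc knockout replicate 2 are high for both genes, and Ku86 knockout replicate 1 is highest for Tmem129, at 662.7, with a Ube2f signal of 55.2.

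Windows at listed starts of Tmem129 and Ube2f are shown because their signals were high on partly the same arrays. Each holds 250 bases before to 50 after the annotated start, from RefSeq on GRCm38.p6, 5′ to 3′ on the gene's strand. For Tmem129 it is chr5:33657928-33658227 on the minus strand, and for Ube2f it is the more upstream of 2 listed windows, chr1:91250054-91250353 on the plus strand, which lies within the annotated span of the gene and not at its outer end.
Tmem129: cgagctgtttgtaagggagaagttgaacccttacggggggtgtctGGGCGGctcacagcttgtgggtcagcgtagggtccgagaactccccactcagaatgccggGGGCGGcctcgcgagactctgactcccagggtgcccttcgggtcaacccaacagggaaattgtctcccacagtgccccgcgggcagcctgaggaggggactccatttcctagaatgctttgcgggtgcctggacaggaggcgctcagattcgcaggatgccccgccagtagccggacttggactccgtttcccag
Ube2f: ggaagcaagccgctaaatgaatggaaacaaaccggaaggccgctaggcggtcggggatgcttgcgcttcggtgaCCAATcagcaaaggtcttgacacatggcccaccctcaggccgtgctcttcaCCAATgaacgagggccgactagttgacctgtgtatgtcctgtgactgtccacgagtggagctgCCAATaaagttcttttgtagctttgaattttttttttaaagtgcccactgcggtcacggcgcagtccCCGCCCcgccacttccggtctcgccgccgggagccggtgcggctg
Capitals mark matches on either strand to CCAAT (the CCAAT box), GGGCGG (the GC box, CCGCCC on the other strand) or TGACGTCA (the cAMP response element, its own reverse complement), and no match overlaps another. The Tmem129 window holds 2 GC boxes and 0 CCAAT boxes, and the Ube2f window holds 3 CCAAT boxes and 1 GC box. Neither holds the cAMP response element, of which the more upstream of 2 listed Ube2b windows has 1. Among 32851 windows of the same length, 37.4% hold CCAAT, 35.7% GGGCGG and 1.79% TGACGTCA, so the GC box that both windows share is a frequent string. A match describes letters only. The genes lie apart, Tmem129 on chromosome 5 from 33653216 to 33657977 and Ube2f on chromosome 1 from 91249690 to 91286521, by the RefSeq gene table.

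By Pearson correlation over the 8 arrays, the 3 probe sets most like Tmem129 161542_r_at were those of Srcap (0.98), Iscu (0.97) and Ubr4 (0.96). Most like Ube2f were Nt5dc3 (0.96), Eif2ak2 (0.95) and Sart1 (0.94), and most like Rnf20 102131_f_at were Dda1 (0.94), Usf1 (0.93) and Smim7 (0.92). These are the highest among the correlations with all tested probe sets that have exactly 1 symbol, over 8 arrays. Ubr4 is itself an E3 ligase, and its probe set had means of 2267 ± 19.4 in the Ku86 knockout and 1752 ± 81.8 in wild type (SD, n = 2 each). That log2 difference was 0.37 and was not called (limma adjusted p = 0.802), where Tmem129 161542_r_at differed by 3.56.

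The rest of the pathway was described from 9 lists with 178 other genes, of which 154, with 192 probe sets, were bright enough to test. Limma called 0 of the 192 in each of the 8 comparisons. At an unadjusted p under 0.05, 7 lay higher and 7 lower in the double knockout against wild type (7.29%, against 8.6% of all probe sets). In the Ku86 knockout these were 6 and 6 (6.25%, against 5.9%), and in the Terc knockout 8 and 5 (6.77%, against 7.06%). The median log2 difference of the 192 was 0.13, 0.099 and 0.081 in the double, Ku86 and Terc knockouts, and that of all tested probe sets 0.075, 0.095 and 0.11. The remaining 5 comparisons had 2 to 11 probe sets at that unadjusted threshold, namely 2 in the double against the Ku86 knockout (3.36% of all), 9 in the double against the Terc knockout (4.26%), 6 in the interaction (5.04%), 11 for Ku86 loss (5.15%) and 7 for Terc loss (5.29%). All 5 had a count of 0 at an adjusted p under 0.05 in these lists, while limma called 0%, 0%, 0%, 0% and 0.0137% of all probe sets in them.

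Among precursors and activating enzymes, none of 12 probe sets was called. For the precursors of ubiquitin-like proteins 1, 3 and 2 of 6 probe sets lay above 0 in the double, Ku86 and Terc knockouts, where 58.7%, 59.7% and 61.1% of all tested probe sets did. Ufm1, a ubiquitin-like modifier, averaged 87.6 ± 15.3 in the Ku86 knockout and 45.8 ± 11.6 in wild type (SD, n = 2 each), a log2 difference of 0.95 (limma adjusted p = 0.802), but its other probe set differed by 0.027. Nedd8 93519_s_at differed by -0.31 in the Terc knockout (limma adjusted p = 0.698) and Nedd8 162180_r_at by 0.41, and Sumo3, a SUMO precursor, differed by -0.21 in the Ku86 knockout. Of the E1 probe sets 6, 5 and 4 of 6 lay above 0. Uba3, the catalytic subunit of the NEDD8 activating enzyme, differed by 0.73 in the double knockout, and Uba1y, the Y-linked ubiquitin activating enzyme, by 0.74 in the Terc knockout (limma adjusted p = 0.675 and 0.674). Uba7, which activates the ubiquitin-like Isg15, differed by 0.63 in the Ku86 knockout. Nae1, the partner of Uba3, differed by -0.012 there, and Sae1, of the SUMO activating enzyme, by -0.25 in the Terc knockout.

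In the E2 list, 15, 10 and 13 of 24 probe sets lay above 0. Ube2c, which serves the anaphase-promoting complex, averaged 104 ± 61.0 in the double knockout, 102 ± 72.2 in the Ku86 knockout, 89.0 ± 44.2 in the Terc knockout and 26.6 ± 16.9 in wild type (SD, n = 2 each). Its log2 differences from wild type were 2.00, 1.90 and 1.81 (limma adjusted p = 0.445, 0.802 and 0.672). The wild type mean of Ube2c lay between the floor of 11.8 and the filter signal of 38.1. Its probe set, 161137_r_at, carries the same suffix as Tmem129 161542_r_at. Ube2s, another E2 of that complex, differed by -0.64 in the double and -0.61 in the Ku86 knockout, and Cdc34, the E2 of cullin-based ligases, by -0.63 in the Terc knockout. Their wild type means, 3550 ± 1401 for Ube2s and 5095 ± 2118 for Cdc34, had wide spreads.

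The NEDD8 list, in which Ube2f works, had 8, 11 and 9 of 19 probe sets above 0. Rnf7, the RING partner of Ube2f, averaged 381 ± 36.2 in the double knockout, 364 ± 81.3 in the Ku86 knockout and 556 ± 37.3 in wild type (SD, n = 2 each). The log2 differences were -0.55 and -0.63 (limma adjusted p = 0.552 and 0.802). Gps1, a subunit of the COP9 signalosome that removes NEDD8 from cullins, differed by -0.65 in the double knockout (limma adjusted p = 0.469), and Cul2, a cullin, by 0.46 in the Ku86 and 0.40 in the Terc knockout.

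E3 ligases formed the longest list, with 62, 53 and 49 of 79 probe sets above 0 and medians of 0.17, 0.16 and 0.089. Of all tested probe sets 58.7%, 59.7% and 61.1% lay above 0. With each array centred on its median, the medians of E3 ligases were -0.098, -0.068 and -0.24, so their sign turned with the scaling. Those of all tested probe sets were then -0.19, -0.14 and -0.22. Nedd4, a HECT ligase, averaged 110 ± 8.98 in the double knockout and 46.1 ± 1.41 in wild type (SD, n = 2 each), a log2 difference of 1.25 (limma adjusted p = 0.382), and its other probe set differed by 0.77. Rnf11 differed by 1.05 in the Terc knockout with 160205_f_at (limma adjusted p = 0.672), a suffix that marks sequence shared with a gene family. Rnf138 99529_f_at differed by -0.57 in the Ku86 knockout (limma adjusted p = 0.650), but its other probe set by 0.081. The list of degradation from the endoplasmic reticulum, where Tmem129 acts, had 13, 10 and 11 of 21 above 0. There Derl1, a channel protein of that pathway, differed by -1.21 in the Ku86 and -1.19 in the Terc knockout (limma adjusted p = 0.802 and 0.672), and by -0.14 and -0.27 with its other probe set. Vcp, the ATPase that pulls proteins out of the membrane, differed by 1.30 in the double knockout with 97666_r_at (limma adjusted p = 0.395) and by 0.79 and 0.36 with its other probe sets, and Selenos, which binds Vcp, by -0.59.

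Deubiquitylases, which remove ubiquitin, had 19, 23 and 23 of 35 probe sets above 0. Usp9x differed by 0.98 in the double knockout, Usp34 by 0.73 in the Ku86 knockout and Usp15 by 0.88 in the Terc knockout (limma adjusted p = 0.397, 0.802 and 0.672). The other probe set of Usp34 differed by 0.92 in the Ku86 knockout, and that of Usp15 by 0.12 in the Terc knockout. Uchl5, a deubiquitylase of the proteasome, averaged 214 ± 86.6 in the Terc knockout and 391 ± 101 in wild type (SD, n = 2 each), a log2 difference of -0.91 (limma adjusted p = 0.672).

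The list of histone ubiquitylation and Rad6 partners had 13, 11 and 12 of 15 probe sets above 0, with medians of 0.18, 0.15 and 0.22. With each array centred on its median these medians were -0.088, -0.081 and -0.11, so their sign too turned with the scaling. Centring moves all probe sets of a comparison by the same amount, and the medians of all tested probe sets were then -0.19, -0.14 and -0.22. Rnf8, the ligase that ubiquitylates histones at DNA breaks and in spermatids, averaged 124 ± 13.3 in the double knockout and 76.2 ± 12.8 in wild type (SD, n = 2 each), a log2 difference of 0.71 (limma adjusted p = 0.620). Rnf2, the polycomb ligase, differed by 0.68 in the Terc knockout (limma adjusted p = 0.672), but by -0.011 with its other probe set. Its paralogue Ring1 differed by -0.19 in the Ku86 knockout, Wac, which binds Rnf20 and Rnf40 in human cells, by 0.50 there, and Usp3, which removes ubiquitin from histones, by -0.28 in the double and -0.41 in the Terc knockout with 99085_at. The other 2 probe sets of Usp3 differed by 0.16 and 0.098 in the double and by 0.14 and 0.012 in the Terc knockout. None was called.

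Genes of spermatid histone replacement had 6, 7 and 9 of 13 probe sets above 0, with medians of -0.0031, 0.0025 and 0.10. H2az1, a variant histone, averaged 1860 ± 74.0 in the double knockout, 1876 ± 157 in the Ku86 knockout, 2295 ± 355 in the Terc knockout and 2916 ± 859 in wild type (SD, n = 2 each). The log2 differences were -0.62, -0.61 and -0.32 (limma adjusted p = 0.469, 0.802 and 0.697). Protamine probe sets gave no common direction. In the double, Ku86 and Terc knockouts Prm1 differed by -0.040, 0.014 and 0.18 and Prm2 by 0.69, -0.077 and -0.029. The Prm2 probe set was dim, at 110 ± 63.9 in the double knockout and 65.55 ± 28.2 in wild type (SD, n = 2 each). Its wild type mean lay not far above the filter of 38.1. Prm3 differed by 0.28, 0.31 and 0.21 with 162056_f_at and by -0.12, -0.15 and -0.10 with its other probe set. The testis linker histone H1f6 differed by 0.58 in the Terc knockout. Beside these lists, the 9 measured round spermatid genes summed to 11272 to 15251 on double knockout, 11438 to 14569 on Ku86 knockout, 12038 to 14405 on Terc knockout and 14726 to 15929 on wild type arrays. The 17 peritubular and matrix genes summed to 3427 to 3957 on double knockout, 2581 to 3220 on Ku86 knockout, 2878 to 3370 on Terc knockout and 1970 to 2218 on wild type arrays. Spermatogonial genes summed to 2971 to 3351 on double knockout, 2671 to 3209 on Ku86 knockout, 2512 to 3045 on Terc knockout and 1770 to 2744 on wild type arrays. For spermatocyte genes the sums were 23414 to 26229 on double knockout, 23557 to 25231 on Ku86 knockout, 21985 to 27205 on Terc knockout and 26254 to 26554 on wild type arrays. Sertoli and peritubular sums thus stood above wild type in all 3 knockouts, and spermatogonial sums in the double knockout. Round spermatid sums stood below wild type in both single knockouts, and spermatocyte sums in the double and Ku86 knockouts, in the double only by 26229 against 26254. Leydig cell genes stood above wild type in the double knockout, at 2517 to 3520 against 2326 to 2436, and otherwise overlapped it, as macrophage genes did in all 3 knockouts. Of all single probe sets tested, 23.2%, 24.4% and 25.5% stood above wild type without overlap in the double, Ku86 and Terc knockouts. Below wild type stood 13.2%, 13.7% and 12.2%, so with 2 arrays on each side such separation was frequent. Inhbb of the Sertoli list was at or below the floor on both Terc knockout and both wild type arrays, and Myh11 of the peritubular list on both wild type arrays. The part of these cell type genes in the result was not tested.

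**Figure D4:**
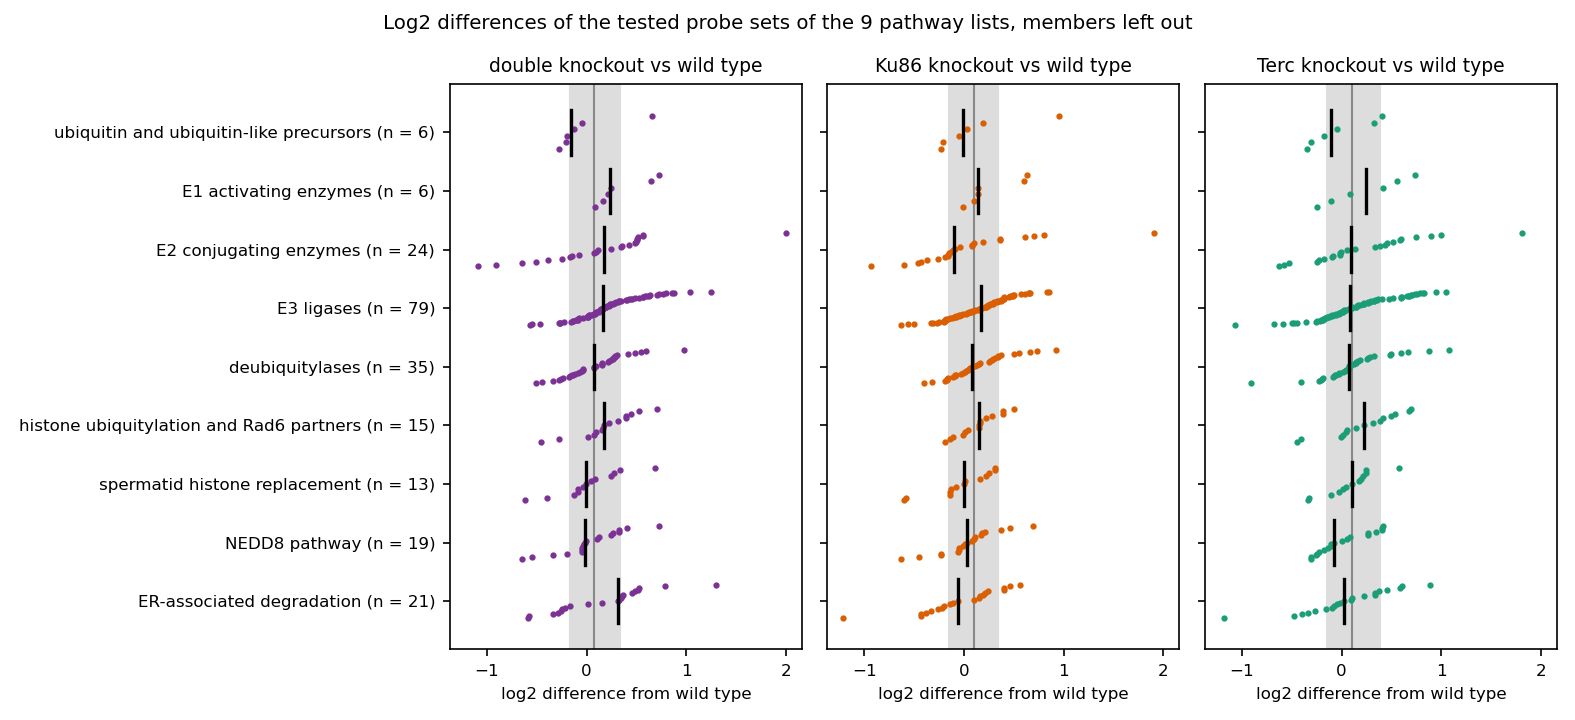
Log2 difference from wild type (horizontal axis) of each tested probe set of the 9 pathway lists, members left out, in the double, Ku86 and Terc knockouts, with black bars for each list's median, a grey line for the median of all 7282 tested probe sets and a grey band for their middle quartiles. The medians of E3 ligases lie at 0.17, 0.16 and 0.089, and none of the points was called.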

How the data were processed

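The deposited table holds 1 linear intensity value per probe set and array. Its values show that the authors had scaled each array, since means without the top and bottom 2% ran from 200.13 to 200.16. Their software was not named in the sources used here. Scan day, pooling and chip lot come from the deposited scanner records, per the file headers, and the lot changed with the day. Values were kept as deposited, raised to a floor of 11.8 (the pooled 20th percentile) and log2-transformed. After removing 66 controls and 5140 probe sets whose mean log2 signal was under log2 of 38.1 (the pooled 40th percentile), 7282 of 12488 remained. The number of arrays limits the precision. With limma 3.58.1 in R 4.3.3, 1 mean per genotype was fitted to all 8 arrays (eBayes with trend, 4 residual degrees of freedom) for 8 two-sided contrasts: the double, Ku86 and Terc knockouts against wild type, the double against the single knockouts, the interaction, and each loss with 4 arrays against 4. Calls needed a Benjamini-Hochberg adjusted p under 0.05, and the fit was tested on simulated data.

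The members and lists were chosen with earlier results of these data known. Named were all member probe sets. From each of the 9 lists came every called probe set or, where none was called, the 1 non-member probe set per direction with the largest moderated t in each knockout against wild type. For each chosen gene the 3 most correlated probe sets were added, and Xrcc5 as a check of labels. Outside this rule, Prm1 was named beside the other protamines, and Ube2h after its values were seen. Symbols came from the platform annotation, in which 10855 probe sets had 1 symbol, 396 several and 1237 none, and promoter windows and gene positions from RefSeq (GRCm38.p6). Figures and motif counts used Python 3.11.15, pandas 2.3.3 and matplotlib 3.10.9. Alternatives covered normalization, floor, filter, variance trend, arrays in the fit, replicate number or scan day as a block, threshold and each array left out. The fit to the 5 arrays of scan day 2 was chosen after seeing the data.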

Additional observations from a re-analysis of the deposited data

Results flagged for a closer look

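For Tmem129 161542_r_at the effect of losing Ku86 ran opposite ways with and without Terc. Both double knockout arrays (133.1 and 113.8) stood below both Terc knockout arrays (165.1 and 624.6), while both Ku86 knockout arrays (662.7 and 426.4) stood above both wild type arrays (36.1 and 56.2). The effect of losing Terc likewise ran opposite ways with and without Ku86. The interaction was -4.94 on the log2 scale (standard error 0.71), and it is the same contrast in both readings, so it counts as 1 value. Of all tested probe sets, 5.93% had such opposite effects of Ku86 and 6.19% of Terc. The gene was chosen for its single knockout values, so the difference was not tested. Without Terc knockout replicate 2 the double knockout differed from the Terc knockout by -0.42 in place of -1.38, and without its replicate 1 by -2.34. The other Tmem129 probe set had an interaction of 0.20.

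Rnf20 104749_at showed the same form at a smaller size, with an interaction of -0.67 on the log2 scale (standard error 0.46). With each array centred on its median the interaction was -0.37. The double knockout differed from the Terc knockout by only -0.13 (standard error 0.33). Both double knockout arrays (88 and 82.5) stood below both Ku86 knockout arrays (97.4 and 110.2) and both Terc knockout arrays (88.4 and 99), and the single knockout arrays stood above wild type (65.6 and 77.9). The arrays nearest to each other, double knockout replicate 1 and Terc knockout replicate 1, differed by 0.4 signal units. The difference was not tested, and probe set 102131_f_at of Rnf20 had an interaction of 1.54.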

How the results depend on the processing

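Ube2b, the tested member, had a count of 0 calls in all 8 comparisons and all 165 alternative fits of them, but its small differences changed sign. Against wild type with each array centred on its median, they were -0.0080 in the double and -0.22 in the Terc knockout, and the interaction was 0.051. With scan day as a block these were -0.13, -0.20 and 0.072. The block takes up wild type replicate 1, the only array of scan day 3, so the Terc knockout value is the same as within scan day 2. Within scan day 2 the double, Ku86 and Terc knockouts gave -0.079, -0.050 and -0.20, and the interaction was 0.17. With 1 array left out, Ube2b ranged from -0.059 to 0.58 in the double, 0.071 to 0.71 in the Ku86 and -0.20 to 0.43 in the Terc knockout. It ranged from -0.015 to 0.30 in the double against the Terc knockout, -0.56 to 0.072 in the interaction and -0.17 to 0.15 for Terc loss. The cause was not tested. Fitted with the replicate block, Ube2b kept differences of 0.26, 0.39 and 0.12, with limma adjusted p of 0.783, 0.686 and 0.891. Deviations of same-numbered arrays correlated at 0.013 to 0.25 over the 6 pairs of genotypes, with 3 above 0.1, so the numbers were not taken to pair the arrays. Replicate 2 of every genotype shares scan day 2, and replicate 1 of the double and Ku86 knockouts, the pair at 0.25, shares scan day 1. Among the other 192 pathway probe sets the count was 0 in 163 of 165 alternative fits. Within scan day 2, with 1 residual degree of freedom, it was 1 in the double against the Terc knockout and 1 for Ku86 loss. Both were the same probe set of Ube2h, an E2 named after its values were seen, at -2.33 and -1.41. Over all arrays these differences were -1.37 and -0.78 (limma adjusted p = 0.990 and 0.910). Against wild type over all arrays this probe set differed by -0.91, -0.19 and 0.46 in the double, Ku86 and Terc knockouts. The other tested probe set of Ube2h differed by 0.51, 0.36 and 0.39, so the signs were opposite in the double and Ku86 knockouts. Differences of the chosen genes moved by more than the spread within genotypes in 6 alternative fits for Tmem129 161542_r_at, 21 for its other probe set, 4 for Rnf20 102131_f_at, 13 for Rnf20 104749_at and 15 for Ube2f, and medians of lists in 75. Over all probe sets the counts of calls, 2, 3 and 2 in the double, Ku86 and Terc knockouts against wild type, ran from 0 to 30, 0 to 15 and 0 to 17. Those of the double against the Ku86 and Terc knockouts, the interaction, Ku86 loss and Terc loss, at 0, 0, 0, 0 and 1, reached 13, 10, 9, 20 and 8. The highest counts came within scan day 2, except in the double against the Terc knockout, where the highest came with no filter. Centring on medians moved the median of all probe sets against wild type to -0.19, -0.14 and -0.22 in the double, Ku86 and Terc knockouts, and quantile normalization moved it to -0.021, 0.011 and 0.0034. The fit to only the genotypes compared gave no value for the interaction or for 4 arrays against 4. Ube2a and Rnf20 161952_r_at were too near the floor to compare.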
